A study of Mus musculus with 32 samples.

Results

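The expression of 10 Krüppel-like factor (Klf) genes was followed across the transcriptomes of β-catenin-rescued mouse embryonic stem cells (ESCs). They are Klf2, Klf4 and Klf5, known as the Klf genes of naive pluripotency, and Klf3, Klf6, Klf7, Klf9, Klf10, Klf11 and Klf13. These were chosen as a list of symbols and matched to the Ensembl gene identifiers of the count tables, which gave 10 genes among 31053, and all 10 passed the filter of at least 1 CPM (the count scaled to a library of 1e6 reads) in at least 4 libraries. The libraries came from 32 samples in 8 groups of 4 biological replicates. All groups derive from the line C1, in which both copies of endogenous β-catenin are deleted and a doxycycline (dox)-driven, trimethoprim (TMP)-stabilised fusion of mCherry and β-catenin S33Y, a constitutively active form, was introduced by lentivirus. C1 is a single line, and every comparison carries its deletion and its transgenes, the controls included. At day 0 in pluripotent culture, C1 cells had 10 µM TMP without dox, and C1M and C1H cells had 100 ng/mL dox with TMP for 48 h before sorting for middle (C1M) or high (C1H) mCherry. C1 cells were sorted too, as live, DAPI-negative cells. At day 4 of differentiation in N2B27-type medium, C1T cells (from C1) had TMP alone, C1MV and C1HV cells (from C1M and C1H) had vehicle after the inducers were withdrawn, and C1MDT and C1HDT cells were kept in dox and TMP. The submitters' labels describe growth in serum with LIF whereas the methods of the study describe 2i with LIF for the sequenced cells, and the latter is followed here.

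On GRCm38 the 10 genes lie apart, each on a chromosome of its own. Klf2 (ENSMUSG00000055148) spans chr8:72319033-72321656, Klf4 (ENSMUSG00000003032) chr4:55527143-55532466 and Klf5 (ENSMUSG00000005148) chr14:99298691-99315036. Klf3 spans chr5:64803388-64832901, Klf6 chr13:5861482-5870394 and Klf7 chr1:64029447-64122282. Klf9 spans chr19:23141226-23168134, Klf10 chr15:38291463-38300706, Klf11 chr12:24651274-24662789 and Klf13 chr7:63886351-63938915.

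Krüppel-like factors are zinc-finger proteins that bind GC-rich and CACCC sequences in promoters and enhancers. Klf2, Klf4 and Klf5 overlap in function in ESCs, where they bind many of the same regulatory elements as Nanog, and Klf4 is a direct target of LIF and STAT3. Klf3, with Klf8 and Klf12, recruits the CtBP corepressor, whereas Klf9, Klf10, Klf11 and Klf13 recruit SIN3A. Klf6 and Klf7 are closely related activators.

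Promoter windows of 300 bases (250 before and 50 after the start of transcription) were taken from RefSeq on GRCm38.p6 for 8 of the 10 genes. Those of Klf5 and Klf10 are not shown. The windows of 5 genes are printed on the strand of the gene, because Klf4, Klf2 and Klf3 were lower and Klf6 was higher at day 4 in every group, and Klf7 rose most in C1T. Capitals mark GC boxes, the letters GGGCGG or its complement CCGCCC. The window of Klf4 is chr4:55532426-55532725 (minus strand), that of Klf2 is chr8:72318812-72319111 (plus), that of Klf3 is chr5:64803271-64803570 (plus), that of Klf6 is chr13:5861239-5861538 (plus) and that of Klf7 is chr1:64121340-64121639 (minus). The RefSeq start of Klf7 lies inside the span given above, which begins further upstream in GENCODE, so this whole window is within the annotated gene.
Klf4: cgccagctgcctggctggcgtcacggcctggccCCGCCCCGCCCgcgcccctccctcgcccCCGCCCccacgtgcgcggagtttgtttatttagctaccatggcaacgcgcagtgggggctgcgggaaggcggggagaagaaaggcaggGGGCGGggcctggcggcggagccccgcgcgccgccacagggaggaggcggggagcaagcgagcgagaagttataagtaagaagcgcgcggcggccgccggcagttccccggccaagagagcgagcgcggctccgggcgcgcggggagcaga
Klf2: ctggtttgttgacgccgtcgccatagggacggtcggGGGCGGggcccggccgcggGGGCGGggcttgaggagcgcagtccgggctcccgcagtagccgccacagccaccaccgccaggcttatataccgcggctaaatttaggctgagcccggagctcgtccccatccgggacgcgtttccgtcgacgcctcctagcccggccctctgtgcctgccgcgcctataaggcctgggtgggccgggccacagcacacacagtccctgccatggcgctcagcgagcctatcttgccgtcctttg
Klf3: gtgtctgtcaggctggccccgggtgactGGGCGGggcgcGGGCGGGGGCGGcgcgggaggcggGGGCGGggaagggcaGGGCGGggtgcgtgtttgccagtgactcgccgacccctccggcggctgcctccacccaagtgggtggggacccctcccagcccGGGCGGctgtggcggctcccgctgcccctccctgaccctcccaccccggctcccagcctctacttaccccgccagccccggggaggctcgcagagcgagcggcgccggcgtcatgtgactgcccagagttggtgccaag
Klf6: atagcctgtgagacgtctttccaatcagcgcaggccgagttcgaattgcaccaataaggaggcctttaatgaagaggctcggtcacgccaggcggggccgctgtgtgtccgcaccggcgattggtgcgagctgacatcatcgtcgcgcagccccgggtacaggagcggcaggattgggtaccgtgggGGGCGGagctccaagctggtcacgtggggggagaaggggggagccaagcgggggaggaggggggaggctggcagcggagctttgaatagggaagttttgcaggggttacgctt
Klf7: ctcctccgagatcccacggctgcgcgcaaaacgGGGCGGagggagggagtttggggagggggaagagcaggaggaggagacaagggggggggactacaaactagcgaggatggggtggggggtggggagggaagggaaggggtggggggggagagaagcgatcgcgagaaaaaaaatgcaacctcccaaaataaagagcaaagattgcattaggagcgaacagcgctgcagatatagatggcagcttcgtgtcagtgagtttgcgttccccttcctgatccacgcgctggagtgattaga
In all, 7 of the 8 windows held a GC box, with 6 matches in Klf3, 4 in Klf4, 4 in Klf11, 3 in Klf13, 2 in Klf2, 1 in Klf6, 1 in Klf7 and 0 in Klf9, whereas 35.7% of all 32851 windows of this length held one. The GC content of the members' windows ran from 58.3% (Klf7) to 77.7% (Klf11), above the median of 52.7% over all windows. The letters CACCC, searched on both strands, occurred 5 times in Klf3, 3 times in Klf7 and once each in Klf2, Klf9 and Klf13, and 57.5% of all windows held them. A GC box and a CACCC match shared 1 base in Klf3 and 1 in Klf13. The letters CTTTGA, which TCF/LEF factors can bind, were found once, in Klf6 (16% of all windows), CTTTGT was found in none of the 8 windows (18.7%), and TTCNNNGAA, which STAT factors can bind, was found once, in Klf9 (8.3%).

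The reads assigned to genes numbered 1366951 to 3648787 per library (median 2402468), so that 3 counts, taken as the floor, correspond to 0.822 to 2.19 CPM. The share of reads on no gene was 9.03% to 11.2% in the day 0 libraries and 4.72% to 6.83% in the day 4 libraries, and its part in the comparisons between the days was not tested. Ctnnb1, which encodes β-catenin, ran from 5.19 to 11 CPM in C1, from 9.45 to 17.7 in C1M and from 34.9 to 48.7 in C1H. At day 4 it ran from 4.13 to 12.4 CPM in C1T, C1MV and C1HV, from 25.4 to 34.1 in C1MDT and from 28.3 to 36.3 in C1HDT. Ctnnb1 was higher in C1MDT than in C1M (1.28, SE 0.19, adjusted p = 1.6e-09), and its difference between C1HDT and C1MDT did not pass (0.051, SE 0.16, adjusted p = 0.992). It was higher in C1H than in C1 (log2 fold change 2.37, SE 0.21, adjusted p = 6.5e-20), and the difference of C1M from C1 did not pass the test (0.61, SE 0.25, adjusted p = 0.0553), although it passed with scaling by library size only (0.67, adjusted p = 0.0303) and with the filter of 1 CPM in all libraries (0.62, adjusted p = 0.0443). Core pluripotency genes (Pou5f1, Sox2, Sall4, Utf1 and Tdgf1) summed to 1538 to 1776 CPM per library at day 0. A list of 8 fibroblast genes summed to 8.38 to 26 CPM over all libraries, and 3 to 5 of the 8 were at or under 3 counts throughout a group.

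Klf4 was the member with the largest change. Its level per replicate was 1350, 1234, 1158 and 1399 CPM in C1, 732, 697, 750 and 846 in C1M, and 939, 824, 824 and 890 in C1H. At day 4 it was 41.7, 43.7, 36.7 and 37.9 CPM in C1T, 47.3, 33.5, 44.1 and 51.3 with the inducers kept in C1MDT and 46.3, 50.2, 38.5 and 36.1 in C1HDT, and 152, 111, 120 and 96.3 with the inducers withdrawn in C1MV and 88.4, 111, 92.5 and 125 in C1HV. Every day 0 library was above every day 4 library. Within day 4, all libraries of C1MV and C1HV lay above those of the other 3 groups, whose libraries overlapped. Klf4 thus had the order C1, C1H, C1M, C1MV, C1HV, C1MDT, C1HDT and C1T, with libraries that overlapped between the neighbours C1H and C1M, C1MV and C1HV, C1MDT and C1HDT, and C1HDT and C1T.

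Klf2, another activator of naive pluripotency, stood at 439, 392, 445 and 493 CPM in C1, 292, 377, 334 and 352 in C1M, and 367, 380, 378 and 321 in C1H. At day 4 it stood at 102, 145, 102 and 114 CPM in C1T, 76.1, 83.7, 88.5 and 95.3 with the inducers kept in C1MDT and 117, 111, 68.3 and 87.5 in C1HDT, and 259, 216, 258 and 201 with the inducers withdrawn in C1MV and 206, 159, 222 and 196 in C1HV. The libraries of C1 did not overlap with those of any other group, and neither did those of C1MDT and C1T, although C1HDT overlapped with both. Klf2 therefore kept more of its day 0 level in C1MV and C1HV than in the other day 4 groups.

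Klf5 was the most abundant member, at 3007, 2872, 2842 and 3204 CPM in C1, 3116, 3384, 3303 and 3574 in C1M, and 3119, 3035, 3173 and 2908 in C1H. At day 4 it was 1043, 1107, 882 and 1065 CPM in C1T, 1159, 1217, 1299 and 1373 with the inducers kept in C1MDT and 1184, 1326, 1180 and 1304 in C1HDT, and 2172, 2001, 1910 and 1814 with the inducers withdrawn in C1MV and 1856, 1829, 1937 and 1828 in C1HV. The withdrawn groups again lay between day 0 and the remaining day 4 groups without overlap. Unlike those of Klf4, the Klf5 libraries of C1MDT and C1HDT all lay above those of C1T.

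**Figure D1:**
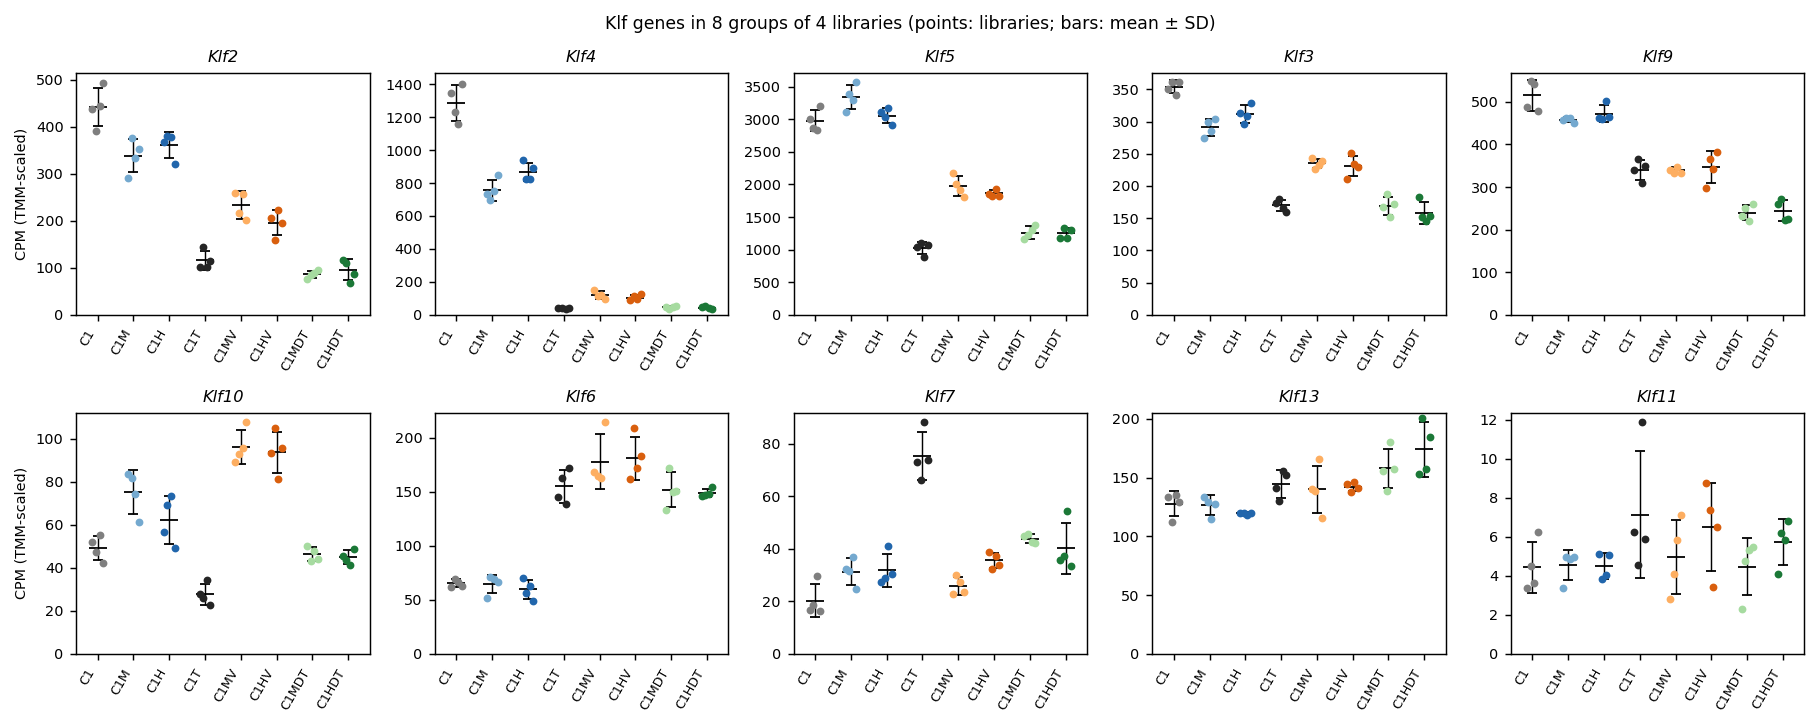
CPM after TMM scaling (y axis, linear from 0) of the 10 Klf genes in 8 groups (x axis), with 1 point per library and the mean ± SD of 4 libraries as bars. Klf4 drops from 1158 to 1399 CPM in C1 to 36.7 to 43.7 CPM in C1T, Klf7 peaks in C1T at 66.2 to 88.2 CPM, and Klf11 stays between 2.31 and 11.9 CPM.

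Differentiation was compared with the day 0 group each day 4 group came from. In C1T vs C1, 8 of the 10 members passed the test, 2 up and 6 down, where 49.3% of the 15280 genes tested passed. Klf4 fell 31.9-fold (log2 fold change -5.00, SE 0.12, adjusted p = 7.5e-41), Klf2 fell 3.81-fold (-1.93, SE 0.13, adjusted p = 4.1e-13) and Klf5 fell 2.91-fold (-1.54, SE 0.065, adjusted p = 6.1e-50). Among the other members, the repressors Klf3 (-1.05, SE 0.079), Klf9 (-0.59, SE 0.073) and Klf10 (-0.81, SE 0.14) fell, and Klf6 (1.24, SE 0.1) and Klf7 (1.90, SE 0.15) rose. The median log2 fold change was -1.93 over Klf2, Klf4 and Klf5, 0.17 over the other 7 members and 0.0084 over all genes. In bulk samples, fewer cells expressing a gene and less RNA per cell cannot be told apart.

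The same 3 naive genes fell in every other differentiation comparison, by different amounts. In C1MV vs C1M (7 members passed, against 45.9% of all genes), Klf4 changed by -2.64 (SE 0.098), Klf2 by -0.53 (SE 0.12) and Klf5 by -0.76 (SE 0.063) on the log2 scale. In C1HV vs C1H (8 members, against 47% of all genes), the values were -3.07 (SE 0.1), -0.88 (SE 0.13) and -0.72 (SE 0.064). With the inducers kept, Klf4 changed by -4.10 (SE 0.11) in C1MDT vs C1M (9 members, against 52.4% of all genes) and by -4.35 (SE 0.11) in C1HDT vs C1H (9 members, against 55.7% of all genes). Klf2 changed by -1.97 (SE 0.13) and -1.91 (SE 0.13) in these, and Klf5 by -1.41 (SE 0.064) and -1.29 (SE 0.064).

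Klf3, the CtBP-binding repressor, had per replicate 350, 362, 342 and 362 CPM in C1, 275, 300, 285 and 304 in C1M, and 313, 296, 309 and 329 in C1H. At day 4 it had 174, 179, 166 and 160 CPM in C1T, 244, 227, 232 and 238 in C1MV and 211, 251, 234 and 230 in C1HV, against 167, 187, 152 and 172 in C1MDT and 183, 151, 145 and 154 in C1HDT. The order of its groups was close to that of Klf2, with C1 above all others and C1T, C1MDT and C1HDT overlapping at the bottom. Klf9, a SIN3A-binding repressor induced by glucocorticoids in many tissues, was instead lowest in C1MDT (219 to 259 CPM) and C1HDT (222 to 271 CPM), below C1T (309 to 365 CPM), C1MV (334 to 348 CPM) and C1HV (298 to 383 CPM), which overlapped.

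Klf6 rose in all 5 differentiation comparisons, from 48.8 to 70.9 CPM over the day 0 libraries to 133 to 215 CPM over the day 4 libraries, by 1.23 to 1.59 on the log2 scale. Klf3 and Klf9 fell in all 5, Klf3 from 275 to 362 CPM at day 0 to 145 to 251 CPM at day 4, and Klf9 from 450 to 549 CPM to 219 to 383 CPM. Klf13 ran from 112 to 135 CPM at day 0 and from 116 to 201 CPM at day 4. It rose in C1MDT vs C1M (0.33, SE 0.088), C1HV vs C1H (0.25, SE 0.092) and C1HDT vs C1H (0.54, SE 0.088), while its values of 0.17 in C1T vs C1 and 0.16 in C1MV vs C1M did not pass. Klf11 passed in no comparison, at 4 to 25 counts per library, where the standard error of a fold change between 2 groups was at least 0.33 on the log2 scale, so that changes of that order were not detectable at this depth.

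Klf10, a TGFβ-responsive early gene, rose in the groups from which the inducers were withdrawn and fell in the other 3 day 4 groups. Its level was 52, 47.6, 55.5 and 42.2 CPM in C1, 83.6, 81.9, 74.3 and 61.5 in C1M, and 56.9, 69.4, 73.6 and 49.2 in C1H. At day 4 it was 27.8, 26.2, 34.3 and 22.8 CPM in C1T, 50.2, 43.1, 47.8 and 44 with the inducers kept in C1MDT and 45.6, 43.5, 41.5 and 49 in C1HDT, and 89.1, 92.9, 95.6 and 108 with the inducers withdrawn in C1MV and 93.5, 105, 81.3 and 95.6 in C1HV. The withdrawn groups had the highest means and C1T the lowest, with no overlap between C1T and any other group. Klf10 rose in C1MV vs C1M (0.34, SE 0.11, adjusted p = 0.00577) and C1HV vs C1H (0.58, SE 0.11, adjusted p = 5.2e-06), and fell in C1T vs C1 (-0.81, SE 0.14, adjusted p = 3.4e-07), C1MDT vs C1M (-0.71, SE 0.12, adjusted p = 4.5e-08) and C1HDT vs C1H (-0.47, SE 0.12, adjusted p = 3.2e-04). The call in C1MV vs C1M was lost without C1M replicate 4 (0.26).

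Klf7 had a peak in C1T. Its level was 16.8, 18.7, 29.6 and 16.3 CPM in C1, 32.3, 31.6, 36.8 and 24.8 in C1M, and 27.3, 28.9, 41 and 30.3 in C1H. At day 4 it was 72.9, 66.2, 88.2 and 73.8 CPM in C1T, 45, 45.7, 42.7 and 42.3 with the inducers kept in C1MDT and 35.7, 37.3, 54.5 and 33.4 in C1HDT, and 23, 30, 27.3 and 23.5 with the inducers withdrawn in C1MV and 38.8, 32.4, 37.4 and 33.8 in C1HV. All C1T libraries lay above all others. Klf7 also rose in C1MDT vs C1M (0.47, SE 0.14) and C1HDT vs C1H (0.33, SE 0.14, adjusted p = 0.0452), and the values of -0.27 in C1MV vs C1M and 0.17 in C1HV vs C1H did not pass. The call in C1HDT vs C1H was lost in 5 of the alternative settings, at 0.25 to 0.30, and without C1H replicate 1, 2 or 4 or C1HDT replicate 3, with values of 0.15 to 0.47 over all libraries left out. Exons of 2 genes on the opposite strand, Gm26649 and Gm13748, overlap Klf7, and the strand setting of the counting is not given in the sources used here. Gm26649 had at most 1 count in any library and Gm13748 had 0. Exons of Gm20033, also on the opposite strand, overlap Klf3, and this gene has no counts of its own in the tables used here.

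**Figure D2:**
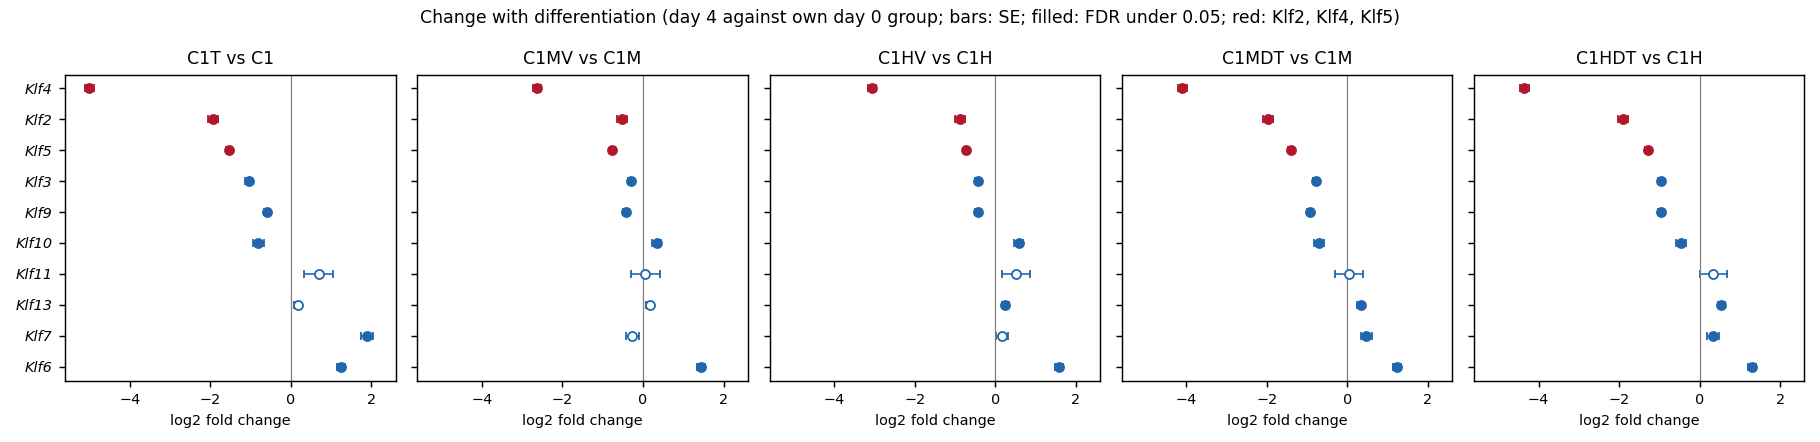
Log2 fold change (x axis) of each Klf gene (y axis) between day 4 and its own day 0 group, with standard errors as bars, 1 panel per comparison, filled points where the adjusted p was under 0.05 and red for Klf2, Klf4 and Klf5. Klf4 runs from -5.00 in C1T vs C1 to -2.64 in C1MV vs C1M, and Klf6 is positive in all 5 panels.

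The size of the change was then compared with that of C1T vs C1, as a difference of log2 fold changes. For the middle fraction without inducers (22.5% of all genes passed), 6 members differed from C1T vs C1, among them Klf4 by 2.36 (SE 0.15, adjusted p = 9.8e-19), Klf2 by 1.40 (SE 0.18, adjusted p = 8.4e-07) and Klf5 by 0.78 (SE 0.09, adjusted p = 5.6e-13). For the high fraction without inducers (21.9%), 6 members differed, with 1.93 (SE 0.16), 1.05 (SE 0.19) and 0.83 (SE 0.09) for the same genes. With inducers kept, 3 members differed in the middle fraction (24.4%) and 5 in the high fraction (25.2%), and Klf4 differed by 0.89 (SE 0.17) and 0.64 (SE 0.17). Klf4 started lower in C1M (-0.77, SE 0.085) and C1H (-0.56, SE 0.085) than in C1. Its day 4 levels in C1MDT (0.13, SE 0.14) and C1HDT (0.08, SE 0.14) did not pass against C1T. Klf3 in the middle fraction (0.27, SE 0.11, adjusted p = 0.0544) passed in 3 of the alternative settings, at 0.26 to 0.31, and without any one of 13 libraries. In the high fraction, 3 members instead of 5 passed with library size only, with DESeq2 and without C1HDT replicate 2. For Klf2 the differences with the inducers kept were -0.039 (SE 0.19) and 0.015 (SE 0.19) and did not pass. Klf7 differed in all 4, by -2.16 (SE 0.22), -1.73 (SE 0.22), -1.42 (SE 0.21) and -1.57 (SE 0.21) in the order middle withdrawn, high withdrawn, middle kept and high kept. These 4 comparisons share the C1T and C1 libraries. No member passed for a difference in the effect of the inducers between the fractions, where 0% of all genes passed with edgeR. Of the members, 2 had an unadjusted p under 0.05, Klf2 (0.41, SE 0.2) and Klf7 (-0.58, SE 0.21). DESeq2 called 0 members and 20 of all genes.

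At day 0, C1M and C1H were compared with C1. In C1M vs C1, 6 members passed, 3 up and 3 down, where 26.3% of all genes passed. Klf4 fell 1.7-fold (-0.77, SE 0.085, adjusted p = 2.0e-10), Klf2 fell 1.31-fold (-0.39, SE 0.12, adjusted p = 0.0174) and Klf3 fell 1.22-fold (-0.28, SE 0.074, adjusted p = 0.00169). Klf10 (0.61, SE 0.12), Klf7 (0.64, SE 0.17) and Klf5 (0.17, SE 0.063, adjusted p = 0.0381) rose. The libraries of Klf5 and Klf7 overlapped between these groups, and the call for Klf5 was lost without any one of 17 of the 32 libraries. Klf9 did not pass (-0.17, SE 0.071, adjusted p = 0.0678), although its libraries did not overlap. It passed in a fit of only these groups (adjusted p = 0.0326) and without any one of 11 libraries. The call for Klf2 was lost without C1 replicate 4 or C1M replicate 1 (-0.32 at the nearest to 0). In C1H vs C1, where 25.9% of all genes passed, Klf4 fell 1.48-fold (-0.56, SE 0.085, adjusted p = 4.2e-07), and Klf7 (0.66, SE 0.17) and Klf10 (0.34, SE 0.12, adjusted p = 0.0265) rose, the last with a call that was lost without C1 replicate 2 or 4 or C1H replicate 2 or 3 (0.25 at the lowest). Klf2 (-0.29, SE 0.12, adjusted p = 0.075) and Klf3 (-0.18, SE 0.074, adjusted p = 0.0538) did not pass, although the libraries of the groups did not overlap, and both passed with DESeq2 and in a fit of only these groups, which gave 5 members each. Between C1H and C1M, edgeR called 0 members (1.77% of all genes passed, 3 members, Klf4, Klf5 and Klf10, had an unadjusted p under 0.05, and DESeq2 called 0), with values from -0.27 (Klf10) to 0.20 (Klf4).

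At day 4, the groups were compared with C1T, which these comparisons share. After withdrawal, Klf4 was 3.01-fold higher in C1MV than in C1T (1.59, SE 0.13, adjusted p = 1.1e-15), Klf2 2.02-fold (1.02, SE 0.14, adjusted p = 7.9e-07) and Klf5 1.93-fold (0.95, SE 0.065, adjusted p = 3.2e-28). Klf10 was 3.41-fold higher (1.77, SE 0.13, adjusted p = 1.4e-25), Klf3 1.38-fold higher (0.46, SE 0.08) and Klf7 2.86-fold lower (-1.52, SE 0.15, adjusted p = 1.2e-17). These were 6 members, 5 up and 1 down, where 30.2% of all genes passed. The same 6 passed in the same directions in C1HV vs C1T (28% of all genes passed), with 1.36 (SE 0.13) for Klf4, 0.76 (SE 0.14) for Klf2, 0.86 (SE 0.065) for Klf5, 1.73 (SE 0.13) for Klf10, 0.44 (SE 0.081) for Klf3 and -1.07 (SE 0.14) for Klf7.

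With the inducers kept, the naive genes were nearer to C1T. In C1MDT vs C1T, where 33.4% of all genes passed, Klf5 was higher (0.30, SE 0.064) and Klf2 lower (-0.42, SE 0.15, adjusted p = 0.0265), and Klf4 did not pass (0.13, SE 0.14). In C1HDT vs C1T, where 33.5% of all genes passed, Klf5 was higher (0.29, SE 0.064), and Klf4 (0.08, SE 0.14) and Klf2 (-0.28, SE 0.15, adjusted p = 0.158) did not pass, although Klf2 passed without the filter on low counts (adjusted p = 0.0205) and in a fit of only these groups (adjusted p = 0.0156). Klf10 was higher in both (0.72, SE 0.14, and 0.68, SE 0.14), and Klf7 (-0.78, SE 0.13, and -0.91, SE 0.13) and Klf9 (-0.50, SE 0.075, and -0.48, SE 0.075) were lower. Klf13 was higher in C1HDT vs C1T (0.27, SE 0.089, adjusted p = 0.0132), with libraries that overlapped. The call for Klf2 in C1MDT vs C1T was lost without any one of 4 libraries (-0.26 at the nearest to 0), and that for Klf13 without either of 2. Klf6 passed in none of the 4 comparisons with C1T, with values from -0.052 to 0.23, of which the highest, in C1HV vs C1T (adjusted p = 0.0542), passed in 5 of the alternative settings.

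Directly compared, the naive genes were lower with the inducers kept than with the inducers withdrawn. In C1MDT vs C1MV, 7 members passed, 1 up and 6 down, where 12.6% of all genes passed. Klf4 fell by 1.46 on the log2 scale (SE 0.12, adjusted p = 1.7e-14), Klf2 by 1.44 (SE 0.14, adjusted p = 6.9e-09) and Klf5 by 0.65 (SE 0.064, adjusted p = 6.4e-16). Klf10 fell by 1.05 (SE 0.11, adjusted p = 1.4e-13), Klf9 by 0.50 (SE 0.075) and Klf3 by 0.47 (SE 0.078), and Klf7 rose by 0.74 (SE 0.15, adjusted p = 7.8e-05). In C1HDT vs C1HV, 8 members passed, 1 up and 7 down, where 16% of all genes passed, with -1.28 (SE 0.13) for Klf4, -1.03 (SE 0.14) for Klf2, -0.58 (SE 0.064) for Klf5 and -1.05 (SE 0.12) for Klf10. Klf7 did not pass here (0.16, SE 0.15, adjusted p = 0.543). Klf6 fell (-0.28, SE 0.092, adjusted p = 0.0215) and Klf13 rose (0.28, SE 0.09, adjusted p = 0.0183), where their values in C1MDT vs C1MV were -0.21 and 0.16 and did not pass. The call for Klf6 was lost without C1HV replicate 2 (-0.21), and that for Klf13 with scaling by library size only (0.23) and without any one of 4 libraries (0.21 at the lowest). Between the fractions at day 4, edgeR called 0 members in C1HV vs C1MV (0.00654% of all genes, 1 gene, passed, and 2 members, Klf4 and Klf7, had an unadjusted p under 0.05) and in C1HDT vs C1MDT (0% of all genes passed, and 0 members had an unadjusted p under 0.05), and DESeq2 also called 0 members in both. Klf7 had 0.45 (SE 0.16) in C1HV vs C1MV, with libraries that did not overlap. Ctnnb1 did not pass in either comparison (-0.47, SE 0.29, in C1HV vs C1MV and 0.051, SE 0.16, in C1HDT vs C1MDT). No difference in its RNA was thus shown between the fractions compared at day 4.

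**Figure D3:**
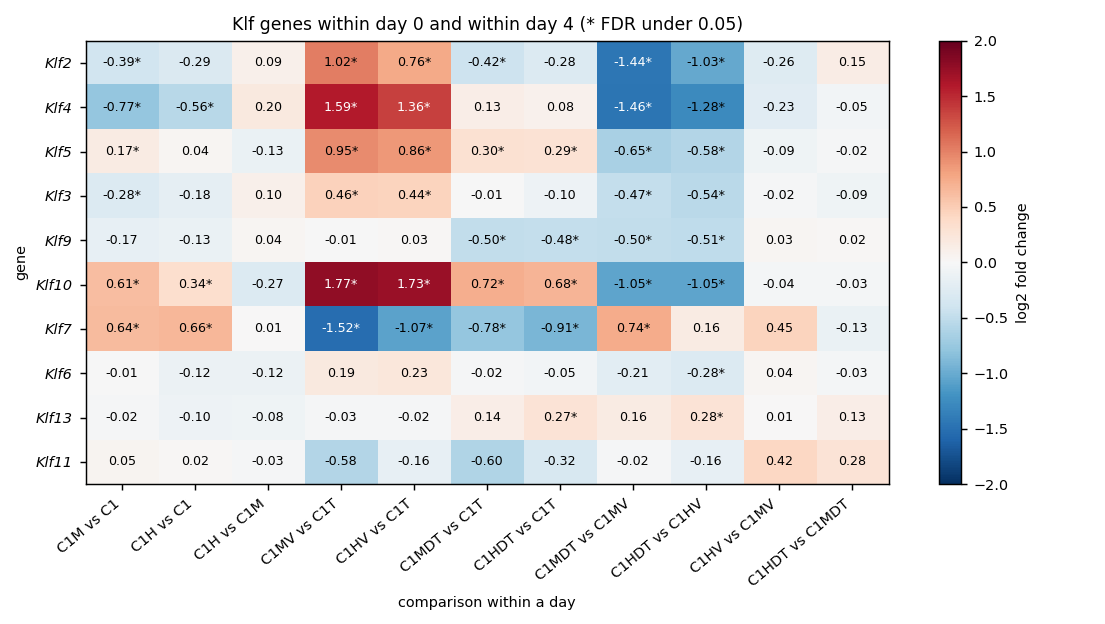
Log2 fold changes (colour scale from -2 to 2, value printed in each cell) of the 10 Klf genes (y axis) in the comparisons within a day (x axis), with a star where the adjusted p was under 0.05. Klf2, Klf4, Klf5, Klf3 and Klf10 are higher in C1MV and C1HV than in C1T and lower in C1MDT and C1HDT than in C1MV and C1HV, and the columns that compare the 2 fractions hold no star.

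Markers of endoderm, neuroectoderm and mesoderm were read as lists in the day 4 groups. A list of 6 endoderm genes (Gata4, Gata6, Sox17, Foxa2, Sox7 and Dab2) summed to 9.79 to 22.9 CPM in C1T, where 2 of the 6 were at or under 3 counts in all libraries, to 233 to 378 CPM in C1MV and 325 to 364 in C1HV, and, with the inducers kept, to 532 to 650 CPM in C1MDT and 524 to 641 in C1HDT. All 6 passed upward in C1MV vs C1T, where 30.2% of all genes passed, and Dab2, an endocytic adaptor of the endoderm, rose by 4.33 (SE 0.22). Most of the sum was Dab2, with a mean of 233 CPM in C1MV and 448 CPM in C1MDT, against 17 and 20.4 CPM for Sox17. In C1MDT vs C1MV, where 12.6% of all genes passed, and in C1HDT vs C1HV, where 16% passed, 3 of the 6 endoderm genes were higher and 0 lower. The 6 neuroectoderm genes summed to 174 to 207 CPM in C1T and to 206 to 279 CPM in the other day 4 groups, and 6 mesoderm genes to 11.9 to 30 CPM over day 4. Of 5 neuroectoderm genes tested, 1 was higher and 2 lower in C1MV vs C1T, and 1 higher and 1 lower in C1HV vs C1T (28% of all genes passed). In C1MDT vs C1T (33.4%) 2 were higher and 1 lower, and in C1HDT vs C1T (33.5%) 3 were higher and 1 lower. Of 5 mesoderm genes tested, 1 was lower in C1MDT vs C1T, and 0 passed in C1MV, C1HV or C1HDT vs C1T. The part of such cells in the Klf results was not tested.

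The 10 Klf genes together fell from 5845 ± 265 CPM (SD, n = 4) in C1 to 2100 ± 129 in C1T. The induced day 0 groups had sums of 5490 ± 262 (C1M) and 5351 ± 159 (C1H), the withdrawn groups 3348 ± 181 (C1MV) and 3201 ± 68 (C1HV), and the groups kept in the inducers 2206 ± 118 (C1MDT) and 2203 ± 119 (C1HDT). Klf2, Klf4 and Klf5 made up 80.5% ± 1.5 of the sum in C1, with 80.8% ± 0.914 for C1M and 80.2% ± 0.497 for C1H. At day 4 their share was lowest in C1T, at 56.1% ± 2.17, followed by 62.9% ± 0.868 in C1HDT and 63% ± 1.64 in C1MDT, and by 67.6% ± 1.8 in C1HV and 69.5% ± 2.11 in C1MV. The share of Klf4 alone went from 22% in C1 to 1.91% in C1T, whereas that of Klf5 was 51% and 48.7%. The other 7 genes summed to 1033 to 1175 CPM per library at day 0 and to 774 to 1108 CPM at day 4. QuantSeq gives reads from the 3′ end of a transcript, so the values are not divided by gene length, and shares between genes are on this per-transcript scale.

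**Figure D4:**
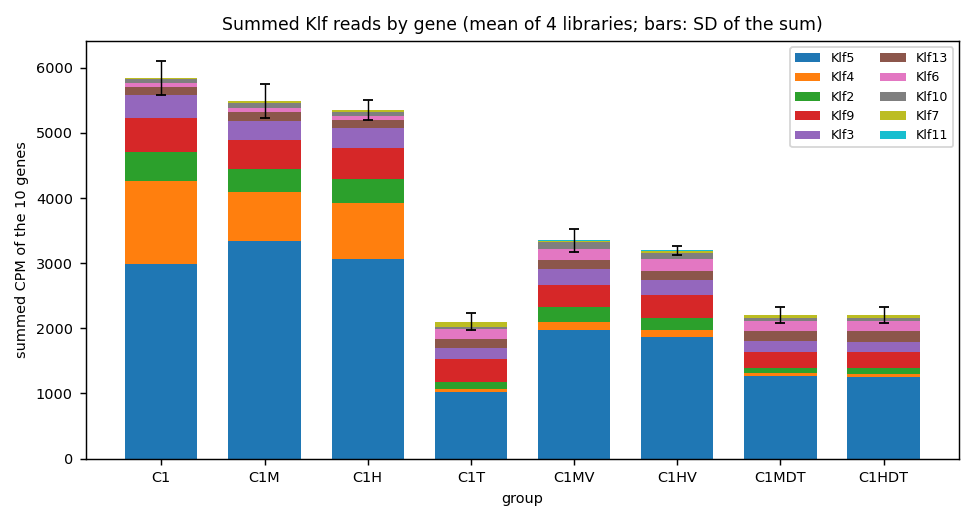
Summed CPM of the 10 Klf genes (y axis, linear from 0) in each group (x axis), stacked by gene as means of 4 libraries, with the SD of the sum as bars. The sum is 5845 CPM in C1, 2100 in C1T and 3348 in C1MV, and Klf4, which fills 22% of the bar of C1, fills 1.91% of that of C1T.

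Over the 8 group means of log2 CPM, which share their libraries and their 2 days, Klf2, Klf4 and Klf5 followed each other with Pearson's r of 0.95 to 0.96, and Klf3 had r of 0.95 to 0.99 and Klf9 r of 0.85 to 0.95 with them. Klf10 had r of 0.33 to 0.57, Klf6 -0.91 to -0.76, Klf7 -0.79 to -0.73 and Klf13 -0.91 to -0.85 with the 3 genes. Among 9298 genes averaging log2 CPM 3 or more, those most like Klf4 were Zfp59 (r = 0.9975), Tbx3 (0.997) and Ckb (0.9967). Those most like Klf2 were Adrb3 (0.9859), Mybl2 (0.9851) and Esrrb (0.985), and those most like Klf5 were Gprc5a (0.9978), Spp1 (0.9956) and Wdr45 (0.9917). Over the 32 libraries Zfp59 had r = 0.894 with Klf4, and Tbx3 r = 0.992.

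Further members of the family were examined as a list. Of Klf1, Klf8, Klf12, Klf14, Klf15, Klf16 and Klf17, 5 were tested, and Klf14 and Klf17 did not pass the filter. Klf8, a CtBP-binding repressor, fell from 37.4 to 60 CPM over the day 0 libraries to 4.58 to 8.49 CPM in C1T (-2.95, SE 0.2, adjusted p = 9.0e-29) and to 11.4 to 23.4 CPM in the other day 4 groups, all 4 of which were above C1T by 0.95 to 1.55. Klf12, a related repressor, was at 12.5 to 20.1 CPM in C1 and lower in C1M (2.89 to 8.48 CPM, -1.78, SE 0.24) and C1H (5.45 to 6.6 CPM, -1.51, SE 0.23). It rose to 58.6 to 66.2 CPM in C1T (1.88, SE 0.17) and to 21.1 to 39.9 CPM in the other day 4 groups, which were below C1T, with log2 fold changes of -1.41 to -0.92. Klf16, which binds SIN3A, rose in C1T vs C1 (0.78, SE 0.18). Klf15 was at 4.79 to 8.49 CPM in C1 and at 0 to 2.91 CPM, around the floor, in C1T, and no fold is given. Klf1 had 0 to 5 counts per library, and no fold is given.

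**Figure D5:**
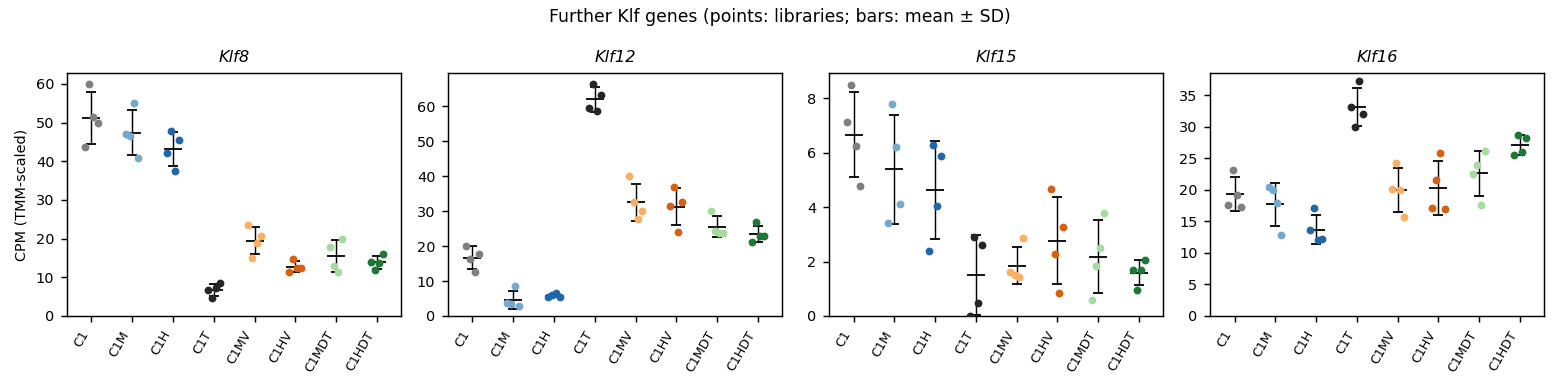
CPM after TMM scaling (y axis, linear from 0) of Klf8, Klf12, Klf15 and Klf16 in 8 groups (x axis), with 1 point per library and the mean ± SD of 4 libraries as bars. Klf8 is lowest in C1T (4.58 to 8.49 CPM), and Klf12 is highest there (58.6 to 66.2 CPM).

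Of the related Sp factors, Sp1 to Sp9, 6 were tested, and Sp5, Sp7 and Sp9 did not pass the filter. Sp1, Sp2 and Sp3 are widely expressed activators or repressors that bind GC boxes. Sp3 fell in all 5 differentiation comparisons, from 54.9 to 94 CPM over the day 0 libraries to 30.6 to 66.6 CPM over the day 4 libraries, by 0.42 to 0.90 on the log2 scale. Sp1 ran from 145 to 244 CPM over all libraries, rose in C1T vs C1 (0.23, SE 0.085, adjusted p = 0.0177) and was lower in all 4 other day 4 groups than in C1T, with log2 fold changes of -0.48 to -0.36. Its call in C1T vs C1 was lost without any one of 4 libraries. Sp2 was lower in C1M (-0.67, SE 0.16) and C1H (-0.63, SE 0.16) than in C1. Sp4 passed in no comparison. Sp6 had 0 to 14 counts per library, and Sp8 had at most 2.4 CPM in any library and was at 0 in all 4 of C1, so no folds are given for them.

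Genes of the naive network, formative and primed genes, and genes of the LIF and STAT3 pathway were read as lists, without a test of the list. Over all genes tested, 49.3% passed in C1T vs C1, 30.2% in C1MV vs C1T and 12.6% in C1MDT vs C1MV, with medians of 0.0084, 0.014 and -0.018. Of 12 further naive network genes, 9 fell and 1 rose in C1T vs C1 (median -2.41), and the log2 fold change was -4.71 (SE 0.085) for Tfcp2l1 and -4.05 (SE 0.1) for Tbx3. In C1MV vs C1T, 7 of the 12 were higher and 3 lower, with 2.16 (SE 0.12) for Tcl1, a coactivator of AKT, and -1.91 (SE 0.26) for the homeobox gene Gbx2. Nr0b1 (-0.90, SE 0.25) and Fgf4 (-0.51, SE 0.094), the other genes that were lower, are named after their values were seen. In C1MDT vs C1MV, 8 were lower and 0 higher, with -1.85 (SE 0.11) for Esrrb and -1.64 (SE 0.17) for Zfp42. The 9 formative and primed genes all rose in C1T vs C1 (median 4.23). Of them 8 were lower in C1MV than in C1T, with -2.38 (SE 0.08) for the DNA methyltransferase gene Dnmt3a, and 7 were higher in C1MDT than in C1MV, with 1.14 (SE 0.086) for Dnmt3b and 1.02 (SE 0.13) for Etv4. Of 10 genes of the LIF and STAT3 pathway, among them receptors, kinases and targets of STAT3, 4 fell and 2 rose in C1T vs C1 (median -0.23), 6 of 10 where 49.3% of all genes passed, with -2.0 (SE 0.12) for Stat3. Socs3 fell from 38.4 to 61.1 CPM in C1 to 1.44 to 2.61 CPM, around the floor, in C1T, and no fold is given. In C1MV vs C1T, 7 were higher and 1 lower, with 1.5 (SE 0.12) for Stat3 and -0.33 (SE 0.11) for Pim1, which is named after its value was seen and whose call was lost with scaling by library size only (-0.27), and in C1MDT vs C1MV, 4 were lower and 0 higher, with -0.96 (SE 0.12) for Pim1 and -0.73 (SE 0.12) for Lifr.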

How the data were processed

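RNA from 32 samples in 8 groups of 4 was profiled with QuantSeq, which reads the 3′ ends of transcripts. After trimming with bbduk, alignment by STAR to mm10 and counting by htseq-count, the authors deposited whole-number counts of uniquely aligned reads per Ensembl gene, without normalization. Per library, 4.72% to 11.2% of reads fell on no gene, and 49.4% to 56.4% were not unique, and these rows were left out.

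After TMM scaling, one quasi-likelihood fit of the 8 groups was made in edgeR (version 4.0.16, R 4.3.3). It held the 15280 genes that reached 1 CPM in 4 or more libraries and gave 21 comparisons, with Benjamini-Hochberg adjustment over all genes within each comparison at 0.05. Log2 CPM had a prior count of 2. Standard errors were derived from the test statistic. Genes were named and placed with GENCODE on GRCm38, the build called mm10. Where replicates share only a label, p-values measure the spread between these samples.

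Samples were grouped by their labels. The Klf genes and the gene lists were chosen with earlier results of these data known. The text names all 10 Klf genes, all further Klf and Sp genes tested, Ctnnb1, and the 3 genes most like each of Klf2, Klf4 and Klf5. The members of the core pluripotency and endoderm lists are also named. Fold changes are given for at most 3 passing genes per list and comparison, apart from additions in C1MV vs C1T. There Nr0b1, Fgf4 and Pim1 were added after their values were seen. The deviations of libraries from their groups had, between the same replicate numbers, an average r of -0.00163 (from -0.0673 to 0.0487), against 0.000545 for other numbers, so no pairing was used. Alternatives were RLE size factors, library size only, DESeq2 1.42.0, no filter, 1 CPM in all libraries (10233 genes), a replicate block, a fit of only the groups compared, a prior count of 0.5 and each library left out. The steps were tested on simulated data. A protein sequence comparison was not made.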

Additional observations from a re-analysis of the deposited data

Results flagged for a closer look

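In 3 of 80 groups of 4 libraries, the library farthest out lay far from the other 3 by Dixon's test, which flags about 1 in 20 groups by chance. These were Klf6 at 215 CPM in C1MV, Klf9 at 501 CPM in C1H and Klf11 at 3.4 CPM in C1M.

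The change with differentiation differed from that in C1T vs C1, by a test of the difference itself, for 3 to 6 of the 10 members per comparison, where 21.9% to 25.2% of all genes passed. After withdrawal of the inducers, the difference on the log2 scale was 1.40 (middle fraction) and 1.05 (high fraction) for Klf2, 0.75 and 0.62 for Klf3, 2.36 and 1.93 for Klf4, 0.78 and 0.83 for Klf5, -2.16 and -1.73 for Klf7, and 1.16 and 1.39 for Klf10. With the inducers kept, it was 0.89 (middle) and 0.64 (high) for Klf4, -1.42 and -1.57 for Klf7, and -0.34 and -0.36 for Klf9, and in the high fraction 0.25 for Klf5 and 0.36 for Klf13. Among the further genes, Klf8 differed by 1.65 and 1.19 after withdrawal and by 1.31 and 1.33 with the inducers kept (middle and high fraction). Klf12 differed by 0.86 in the withdrawn middle fraction, and Sp1 by -0.31 in the high fraction with inducers. Klf12 started lower in C1M than in C1 (-1.78) and was below C1T in C1MV (-0.92). Klf4 also started lower in C1M (-0.77) and C1H (-0.56) than in C1. With the inducers kept, its day 4 values against C1T did not pass (0.13 and 0.08). In the high fraction with inducers, the call for Klf5 was lost under 5 alternatives and that for Klf13 under 2, and in the middle fraction with inducers that for Klf9 was lost without C1T replicate 2. The call for Klf12 was lost without any one of 5 libraries and that for Sp1 without any one of 17. All of these share the C1T and C1 libraries.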

How the results depend on the processing

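Of 107 results of single Klf genes that passed the test, 95 stayed past it with the same sign under all 39 alternatives, and none changed sign. The replicate block changed 0 of the 107 and brought 0 of the 103 others past the threshold, so samples that share a number gave the same calls when blocked. For C1H vs C1, 3 members passed, against 5 in a fit of only the groups compared, 5 with DESeq2 and 2 to 5 with single libraries left out (5 without C1T replicate 2 or C1HDT replicate 1). For C1H vs C1M the fit of only the groups compared gave 1 member (Klf4, 0.20). For the difference of C1HDT vs C1H from C1T vs C1, 5 members passed, against 3 with library size only, 3 with DESeq2 and 3 to 5 with libraries left out, where the lowest count came without C1HDT replicate 2. There Klf5 (0.19 to 0.23) was lost under 5 alternatives and Klf13 under 2 (0.31 with library size only, 0.34 with DESeq2). Klf7 in C1HDT vs C1H was lost under 5 (0.25 to 0.30) and Klf13 in C1HDT vs C1HV with library size only (0.23). The causes were not tested.

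Leaving out single libraries ended 12 of the calls. Klf5 in C1M vs C1 was lost without any of 17 libraries (0.13 to 0.20). Also lost were Klf10 in C1MV vs C1M without C1M replicate 4 (0.26), Klf2 in C1M vs C1 without C1 replicate 4 or C1M replicate 1 (-0.32 at the nearest to 0), Klf10 in C1H vs C1 without C1 replicate 2 or 4 or C1H replicate 2 or 3 (0.25 to 0.43 over all libraries), Klf2 in C1MDT vs C1T without C1T replicate 2 or 4 or C1MDT replicate 1 or 2 (-0.48 to -0.26), Klf13 in C1HDT vs C1T without C1T replicate 2 or C1HDT replicate 2 (0.19 to 0.33), Klf6 in C1HDT vs C1HV without C1HV replicate 2 (-0.21), Klf13 in C1HDT vs C1HV without C1HV replicate 2 or 4 or C1HDT replicate 2 or 4 (0.21 to 0.33) and Klf7 in C1HDT vs C1H without C1H replicate 1, 2 or 4 or C1HDT replicate 3 (0.15 to 0.47). Among the differences from C1T vs C1, Klf9 in C1MDT vs C1M was lost without C1T replicate 2 (-0.26), Klf5 in C1HDT vs C1H without C1 replicate 4, C1H replicate 4, C1T replicate 3 or C1HDT replicate 2 (0.20 to 0.32), and Klf13 there without C1 replicate 3, C1T replicate 2 or C1HDT replicate 2 (0.29 to 0.45).

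Counts over all genes moved most where few passed. C1H vs C1M gave 271, against 601 in a fit of only these groups and 118 to 323 with libraries left out. C1HV vs C1MV gave 1, against 3 without the filter and 0 to 8 with libraries left out, C1HDT vs C1MDT 0, against 1 in a fit of only these groups and 0 to 1 with libraries left out, and the inducer effect between fractions 0, against 11 without the filter, 20 with DESeq2 and 0 to 21 with libraries left out. Scaling by library size only moved the median log2 fold change of all genes to 0.12 in C1M vs C1 and in C1H vs C1 and to -0.14 in C1HDT vs C1H, and the genes up among those called at day 0 from 2184 of 4022 to 2638 of 4085, and from 2113 of 3965 to 2732 of 4108. It moved them from 2091 of 4273 to 2575 of 4337 in C1HV vs C1T, and from 1390 of 2442 to 1097 of 2428 in C1HDT vs C1HV. The alternatives for the further genes named (179 results) were added after the data were seen. Of these, 23 changed side of the threshold under some alternative and 0 changed sign.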

Other observations

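Corepressor and immediate early genes were read beside the Klf genes. Of 10 genes for corepressors, coactivators and ubiquitin ligases that act with Klf proteins, 6 fell and 3 rose in C1T vs C1, where 49.3% of all genes passed, with 1.13 (SE 0.13) for the corepressor gene Ctbp1, partner of Klf3, Klf8 and Klf12, and -0.99 (SE 0.11) for Wwp1, a ubiquitin ligase. In C1MV vs C1T, where 30.2% of all genes passed, 4 were lower and 1 higher, with -0.65 (SE 0.082) for Ctbp2 and 0.58 (SE 0.082) for Sin3b. Of 11 immediate early genes tested, which respond to handling and to growth factors, 6 fell and 1 rose in C1T vs C1, 7 of 11 beside the 49.3% of all genes, with -1.69 (SE 0.26) for Junb. Their sum was 208 to 273 CPM per library at day 0 and 136 to 179 CPM at day 4, and its part in the Klf results was not tested.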
